A study of Macaca mulatta with 6 samples.

Results

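The genes described here are the heat shock proteins, J proteins, BAG proteins and heat shock factors of the rhesus monkey (Macaca mulatta), measured by bulk RNA sequencing of cultures that the study names spermatogonial stem cells (SSCs). They were chosen by symbol alone, from the prefixes HSPA, HSPB, HSPD, HSPE, HSPH, HSP90, HSF, BAG, DNAJA, DNAJB and DNAJC. Of 69 such symbols the rule left out 6, namely HSPA5, HSP90B1, DNAJB11 and DNAJC3 of the endoplasmic reticulum and HSPBP1 and HSPBAP1, which bind heat shock proteins, and 63 of 17795 genes remained. The prefixes do not gather a purely cytosolic set. By textbook location 25 members are cytosolic, 15 cytosolic or nuclear, 9 mitochondrial, 5 of the endoplasmic reticulum and 2 of its membrane, 5 nuclear and 2 divergent cytosolic HSP70 proteins, and HSF2BP is a meiotic recombination protein that is no chaperone. HSP90AA1, HSPA1A, HSPA1B, HSPA2, HSPB1 and HSPB8 were not analysed here.

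The SSC PDGF+ group held 3 libraries from cells grown in 3D hydrogel droplets with human platelet-derived growth factor (PDGF), and the SSC PDGF- group held 3 libraries without it. By the culture methods the medium also held serum, GDNF, EGF, bFGF, LIF and Wnt3a. In both groups replicate 1 belonged to batch 1 and replicates 2 and 3 to batch 2. The labels name testis as the tissue, and neither they nor the study's methods state the animals, their age, the days in culture or whether the libraries came from separate cultures.

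Heat shock proteins are molecular chaperones, which bind unfolded proteins and help them fold, assemble or be degraded. HSP70 works in a cycle of ATP binding and hydrolysis, in which J proteins deliver substrates and stimulate hydrolysis, while HSP110 and BAG proteins exchange the nucleotide, and HSP90 receives clients from HSP70 with the help of co-chaperones. The transcription factor HSF1 switches on many of these genes upon heat or proteotoxic stress by binding heat shock elements, arrays of inverted nGAAn units near their start sites. The testis has its own members of several of these families, made by meiotic and haploid germ cells.

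Total counts per library ranged from 13095468 to 14102698 in SSC PDGF+ and from 10593808 to 11605912 in SSC PDGF-. Levels below are CPM, a library's counts rescaled to a common total after trimmed-mean scaling. Markers of the labelled cell type were checked first. Of the markers of undifferentiated spermatogonia 6 of 7 had counts, with a summed level of 376 to 436 CPM in SSC PDGF+ and 348.5 to 461 CPM in SSC PDGF-, and the SSC marker NANOS2 was at 0 in every library. The germ cell markers DDX4, DAZL and MAEL summed to 0.301 to 1.22 CPM in SSC PDGF+ and 4.70 to 8.43 CPM in SSC PDGF-, whereas the 7 peritubular and stromal markers summed to 10850 to 16110 CPM and 10030 to 12890 CPM. The levels of NANOS2, the germ cell markers and the stromal markers go against the name SSC. The sum of the undifferentiated list by itself does not, and which of its genes carry that sum is not given here. The name is kept only as the study's label for the groups. Of the other lists, none of them tested, 4 had ranges that did not overlap between the groups. Spermatid markers, of which 9 of 10 had counts and TSSK2 was at 0, summed to 78.0 to 118 CPM with PDGF and 567 to 904 CPM without it, the 5 spermatocyte markers to 0.156 to 0.405 CPM and 2.65 to 3.45 CPM, and the 2 epithelial markers analysed to 8.94 to 12.0 CPM and 26.5 to 35.3 CPM. Leydig markers, of which 4 of 5 had counts and CYP11A1 was at 0, were the list with the higher range in SSC PDGF+, at 259 to 324 CPM against 216 to 257.5 CPM. In bulk libraries, fewer cells of a type and less RNA per cell cannot be told apart.

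Among the members, upstream sequence is shown for 3 with a strict heat shock element, because such elements are where HSF1 binds. The 300 bases before the annotated start were read from the RefSeq assembly Mmul_10 for the 62 members found in its annotation. They were searched on both strands for GAANNTTCNNGAA, which reads TTCNNGAANNTTC on the other strand. Of the members 4 (6.45%) held it, against 87 of 20782 protein-coding genes (0.419%). Described here are the constitutive HSP70 gene HSPA8, with 2 matches whose first bases lie 227 and 52 bases before the start, and the J protein genes DNAJB6 (98 bases) and DNAJB5 (63 bases). Each sequence is written 5′ to 3′ on the strand of its gene, with the match in capitals. The whole window is given for HSPA8 (chr14:116039056-116039355, minus strand) and the match with 20 bases on each side for DNAJB6 (chr3:183347075-183347127, plus strand) and DNAJB5 (chr15:49238616-49238668, minus strand).
HSPA8: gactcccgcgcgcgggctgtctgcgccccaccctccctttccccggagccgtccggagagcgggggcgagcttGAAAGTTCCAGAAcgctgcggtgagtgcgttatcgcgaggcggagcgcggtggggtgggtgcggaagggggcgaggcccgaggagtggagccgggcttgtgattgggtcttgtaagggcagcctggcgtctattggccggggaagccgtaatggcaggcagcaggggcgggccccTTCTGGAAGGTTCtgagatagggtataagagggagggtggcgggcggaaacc
DNAJB6: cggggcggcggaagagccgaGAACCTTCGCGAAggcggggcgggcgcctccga
DNAJB5: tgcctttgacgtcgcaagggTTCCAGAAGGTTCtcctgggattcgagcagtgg
A match is a description of letters and not a tested binding site. These 3 genes did not share a direction, as described with their values.

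The design asks how these genes differ between cultures with and without the growth factor. Of the 63 members 61 passed the filter on low counts, and edgeR called 3 of them higher and 8 lower with PDGF at an adjusted p under 0.05. These are 4.92% and 13.1% of the members tested, against 7.61% and 10.7% of the 11539 genes tested. Of the 8 lower genes 5 are known for expression in the testis, and the abundant general chaperones differed little, mostly in the other direction. DESeq2 called 5 members higher and 10 lower, where it called 10.2% and 13.4% of all genes. The 3 higher genes were HSP90AB1, whose counts are shared with another gene as described with its values, DNAJB12 and HSPA4L. Across the 61 members 38 log2 fold changes were above 0 and 23 below, with a median of 0.17, against a median of 0.02 over all genes tested. In all 3 pairs of libraries with the same replicate number 30 members (49.2%) were higher with PDGF and 16 (26.2%) lower, where the shares over all genes were 38.2% and 36.0%.

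Libraries of the same replicate number deviated together from their group means, and when that number entered the fit as a block, 26 members were called higher and 13 lower. The corresponding shares were 42.6% and 21.3%, against a background of 31.1% and 29% of all genes, so the higher calls lay above the background and the lower calls below it. The 11 members called without the block kept their calls and directions. Another 23 members were higher and 5 lower only with the block, and 22 passed in neither fit. Where both fits are given, the value without the block comes first.

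**Figure D1:**
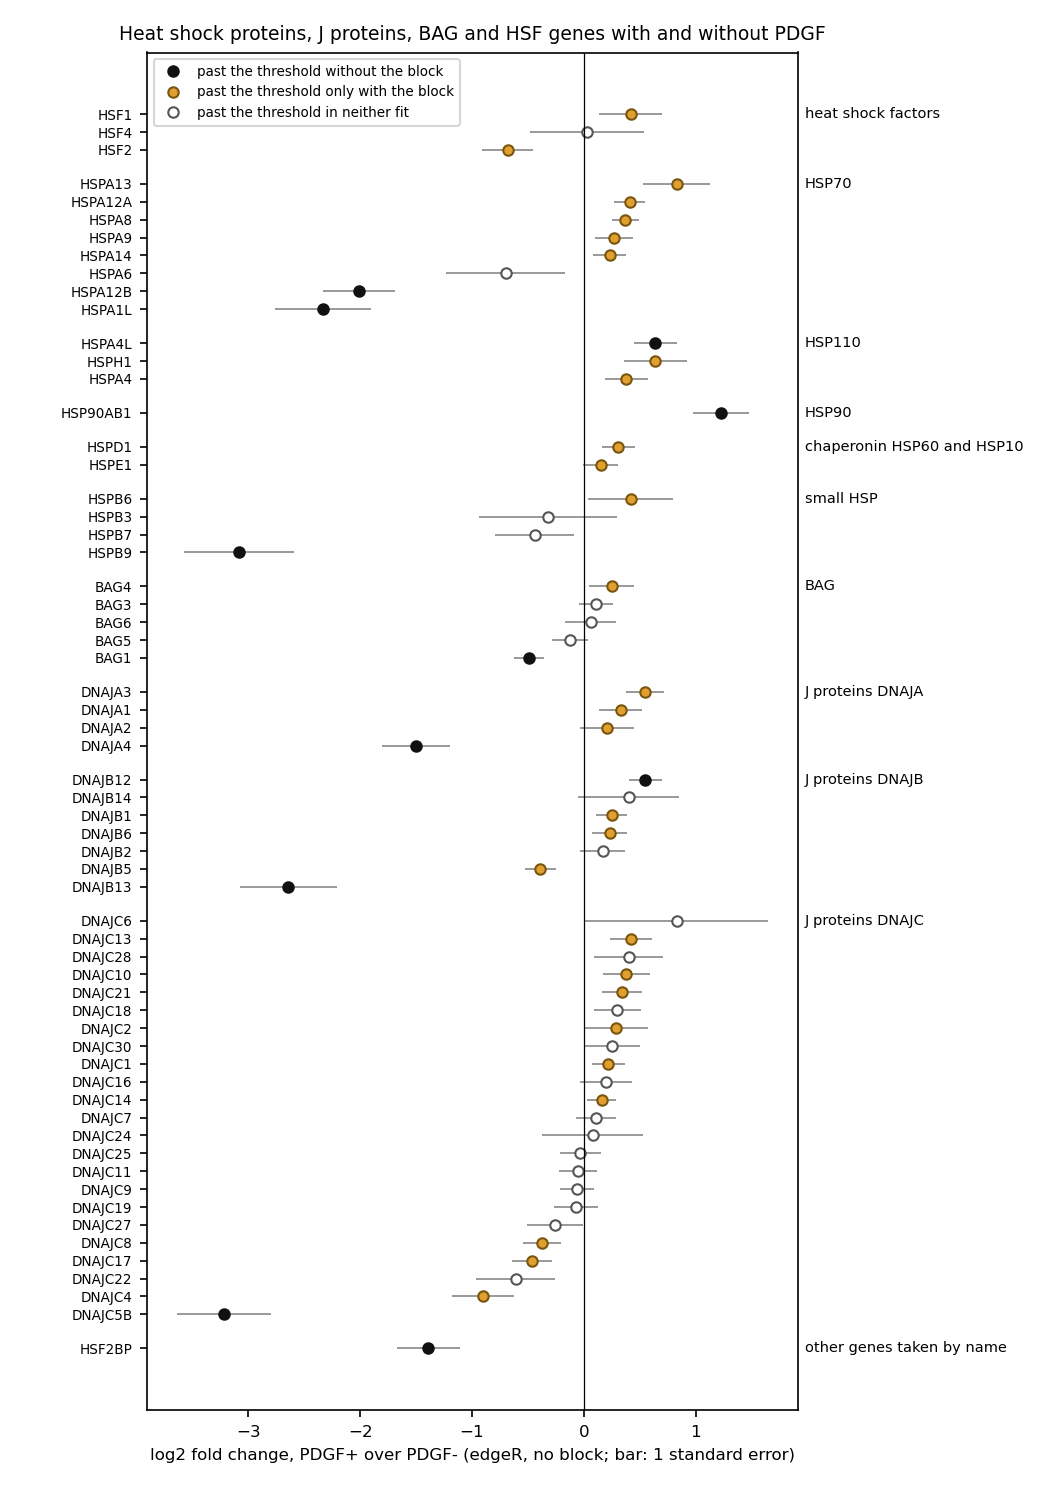
Log2 fold change of SSC PDGF+ over SSC PDGF- for the 61 members tested, ordered by family, with bars of 1 standard error from the edgeR fit without a block (3 libraries per group). Black points passed an adjusted p of 0.05 in that fit, orange points only with the replicate block, and open points in neither; the changes run from -3.22 (DNAJC5B) to 1.23 (HSP90AB1).

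HSPA8 (chr14:116034417-116039055, Mmul_10), the constitutive cytosolic HSP70 that folds newly made proteins and uncoats clathrin vesicles, was the most abundant member and supplied 27.1% to 30.2% of the summed level of all members in a library. It measured 2378, 2132 and 2038 CPM in SSC PDGF+ replicates 1 to 3 and 1843, 1643 and 1593 CPM in SSC PDGF-. Every library with PDGF lay above every library without it, and within each batch the difference was the same 0.37 on the log2 scale. The log2 fold change was 0.37 ± 0.12 (SE, n = 3 per group), with an edgeR adjusted p of 0.0664 without the block and 3.07e-09 with it; leaving out SSC PDGF- replicate 1 gave 0.038. Per kilobase of exon HSPA8 also led the members, at 966.7 CPM with PDGF and 749.7 CPM without. It was followed by HSPE1 at 476.6 and 428.5 CPM and HSPD1 at 237 and 191 CPM. The place of HSPE1 is uncertain, since its counts are shared with another gene as described with its values. The summed level of all 63 members with PDGF was 7341 ± 709 CPM (SD, n = 3), against 6165 ± 546 CPM without it, a ratio of 1.19.

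The other HSP70 members took both directions. HSPA13, a divergent HSP70 of the endoplasmic reticulum, differed by 0.83 ± 0.30 log2 units (77.5 against 43.4 CPM on average, edgeR adjusted p = 0.0954, and 4.72e-09 with the block). HSPA9, the mitochondrial HSP70 that pulls proteins through the inner membrane, HSPA12A and the ribosome-associated HSPA14 were also higher only with the block, with log2 fold changes of 0.27, 0.41 and 0.23. The annotated exons of HSPA12A overlap an opposite-strand gene over 25.3% of their length. HSPA6, a strictly stress-inducible HSP70, stood at 0.659 CPM with PDGF and 1.09 CPM without, and passed in neither fit.

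HSPA12B (chr10:62736240-62755995), a divergent HSP70 known from endothelial cells, was the clearest of the family and fell with PDGF. It measured 2.57, 4.46 and 5.11 CPM in SSC PDGF+ and 12.2, 15.9 and 20.9 CPM in SSC PDGF-, so the groups did not overlap. The log2 change of -2.01 ± 0.32 had an edgeR adjusted p of 0.00414, and the call held in all 18 alternative analyses. The endothelial markers PECAM1, VWF and CDH5 summed to 7.44 to 8.99 CPM with PDGF and 3.86 to 7.54 CPM without, ranges that overlapped, and their part in the lower level of HSPA12B was not tested.

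The 3 HSP110 genes, whose products exchange nucleotide on HSP70 and hold unfolded proteins, all had positive changes of 0.38 to 0.64. HSPA4L measured 72.3, 53.6 and 55.3 CPM in SSC PDGF+ and 45.8, 36.7 and 33.4 CPM in SSC PDGF-, without overlap. It rose by 0.64 ± 0.19 log2 units (edgeR adjusted p = 0.0497, and 5.03e-07 with the block), but the call without the block was lost in 11 of 18 alternatives, including each library left out other than SSC PDGF- replicate 1 (adjusted p from 0.0827 to 0.17). HSPH1 measured 232, 136 and 143 CPM against 151, 86.2 and 91.8 CPM. In both groups its replicate 1 stood far above the other two, so the groups overlapped although each pair differed by a similar amount (0.62 in batch 1 and 0.65 in batch 2). The edgeR adjusted p of HSPH1 was 0.155 without the block, 1.27e-09 with it and 0.0268 without SSC PDGF- replicate 1, and for HSPA4 it was 0.192 and 6.61e-07.

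HSP90AB1 (chr4:125076090-125084774) is the gene of the constitutive cytosolic HSP90, which matures kinases and steroid receptors. Its row measured 32.9, 57.2 and 56.1 CPM in SSC PDGF+ and 17.2, 22.5 and 22.4 CPM in SSC PDGF-, the largest increase among the members tested (log2 fold change 1.23 ± 0.25, edgeR adjusted p = 0.0114). This row cannot be read as HSP90AB1 alone. Its counts were identical in all 6 libraries to those of SLC29A1, a nucleoside transporter gene that lies 11411 bases away on chromosome 4 in Mmul_10, and the reads cannot be assigned to either gene. The level per kilobase of exon was 11.6 CPM with PDGF and 4.94 CPM without, far below that of HSPA8.

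The mitochondrial chaperonin HSPD1 (HSP60) and its lid HSPE1 (HSP10) lie head to head on chromosome 12. HSPD1 measured 766, 624 and 603 CPM with PDGF and 612, 494 and 498 CPM without. Each pair was higher with PDGF, and the edgeR adjusted p of its log2 fold change of 0.31 ± 0.15 was 0.185 without the block and 6.74e-07 with it. HSPE1 measured 280.5, 220 and 208 CPM against 238, 194 and 206 CPM, a change of 0.15 ± 0.16 (edgeR adjusted p = 0.54, and 0.0163 with the block). The HSPE1 row was identical to that of MOB4, 15744 bases away, so its reads too cannot be assigned to a single gene.

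**Figure D2:**
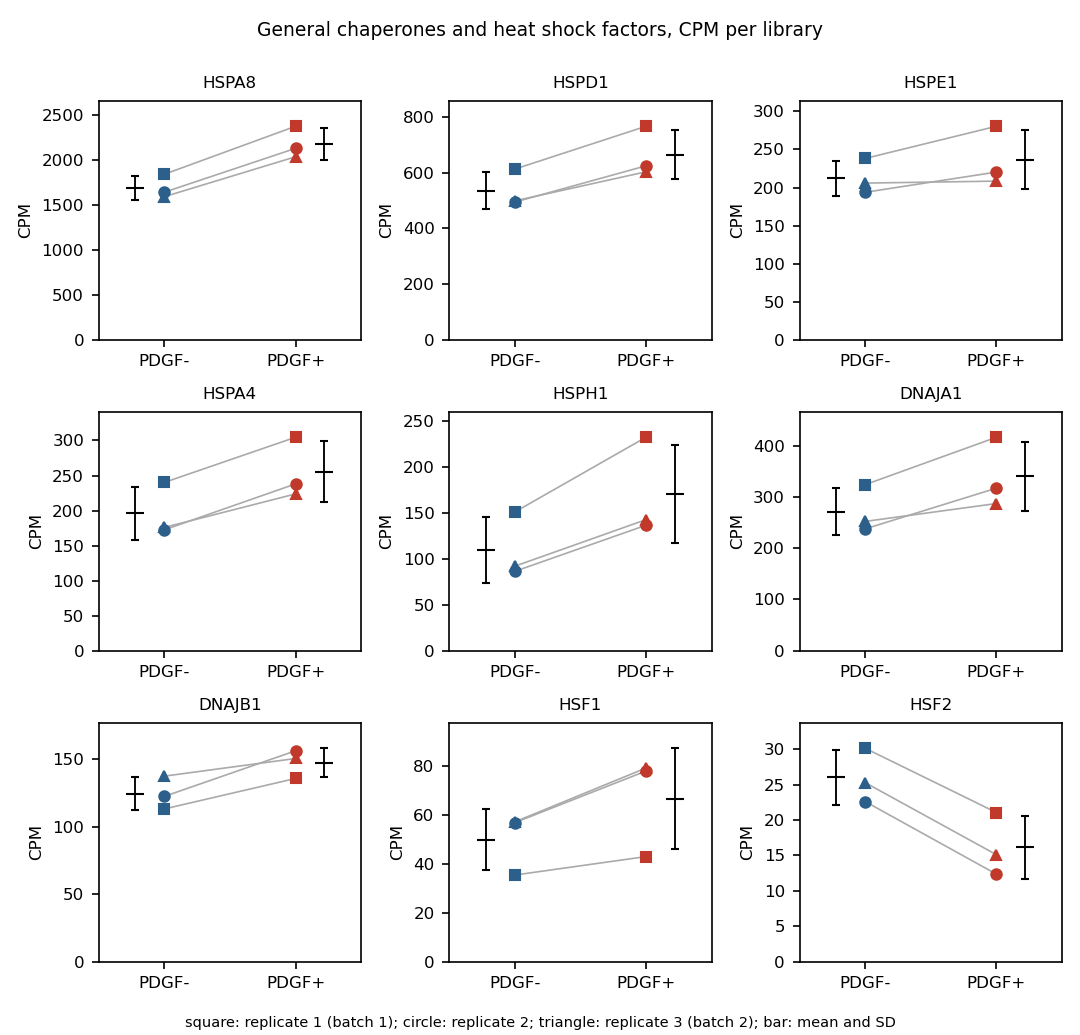
Level in each library (CPM, linear axes from 0) of 9 general chaperones and heat shock factors, with grey lines joining libraries of the same replicate number and bars of mean ± SD (n = 3). Lines slope up to SSC PDGF+ in all 3 pairs for each gene except HSF2, which slopes down; replicate 1 of HSPH1 reaches 232 CPM against 136 and 143 CPM in replicates 2 and 3.

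The general J proteins that serve cytosolic HSP70 shared this pattern of small differences that passed only with the block. DNAJA1 measured 416, 317 and 287 CPM in SSC PDGF+ and 324, 237 and 252 CPM in SSC PDGF- (log2 fold change 0.33 ± 0.19, edgeR adjusted p = 0.258, and 7.28e-06 with the block). The heat-inducible DNAJB1 measured 136, 156 and 150.5 CPM against 113, 122 and 137 CPM (0.25 ± 0.14, edgeR adjusted p = 0.248, and 7.51e-04 with the block). DNAJB6, which holds back protein aggregation and carries one of the matches shown above, averaged 153 and 130 CPM, a log2 change of 0.23, and was likewise higher with the block. DNAJB5, which carries another, went the other way at 31.2 and 40.9 CPM, a log2 change of -0.39 (edgeR adjusted p = 0.0896, and 8.83e-04 with the block). The annotated exons of DNAJB5 overlap an opposite-strand gene over 26.7% of their length, and the strand setting of the counts is not known.

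DNAJA4, a cytosolic J protein of the DNAJA type, fell where its relatives DNAJA1 and DNAJA2 did not. It measured 2.97, 3.36 and 2.03 CPM with PDGF and 6.32, 7.09 and 10.4 CPM without, with no overlap and a log2 change of -1.50 ± 0.30 (edgeR adjusted p = 0.0121). Leaving out SSC PDGF+ replicate 3 brought the adjusted p to 0.0501. DNAJB12, a J protein in the membrane of the endoplasmic reticulum that works in the degradation of misfolded membrane proteins, rose from 33.3, 37.0 and 33.4 CPM without PDGF to 46.9, 48.1 and 56.4 CPM with it. The log2 change of 0.55 ± 0.15 had an edgeR adjusted p of 0.0392, but 8 of 18 alternatives lost the call, including each library left out other than SSC PDGF+ replicate 1 (adjusted p from 0.0595 to 0.15).

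The remaining J proteins are specialised. Of all 35 J proteins 34 were tested, with a median log2 fold change of 0.19. Without the block 1 was called higher (2.94%, background 7.61%) and 3 lower (8.82%, background 10.7%). With it 12 were higher (35.3%, background 31.1%) and 7 lower (20.6%, background 29%). Members higher only with the block included the mitochondrial DNAJA3 (0.55), the disulfide reductase DNAJC10 of the endoplasmic reticulum (0.38), the endosomal DNAJC13 (0.42) and the ribosome-linked DNAJC2 (0.29) and DNAJC21 (0.34). Those lower only with the block, apart from DNAJB5, were the mitochondrial DNAJC4 (-0.90) and the spliceosome-linked DNAJC8 (-0.37) and DNAJC17 (-0.46). DNAJC8 was abundant per kilobase of exon, at 102 CPM with PDGF and 132 CPM without. Counts of DNAJC14, DNAJC24 and DNAJC25 were identical to those of the nearby genes SARNP, ELP4 and GNG10. Of the exon length of DNAJC7, 58.3% overlaps the opposite-strand gene CNP, so these 4 levels are uncertain. Smaller shares of the exons of DNAJC2 (15.8%, PMPCB) and DNAJC17 (10.7%, ZFYVE19) also overlap opposite-strand genes.

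BAG proteins bind the ATPase domain of HSP70 and release its nucleotide. BAG1 measured 54.7, 59.9 and 56.5 CPM in SSC PDGF+ and 82.4, 75.8 and 81.6 CPM in SSC PDGF-. The groups were far apart relative to their spread, and BAG1 fell by 0.49 log2 units (SE 0.13, edgeR adjusted p = 0.036, and 4.24e-06 with the block). Without the block the call was lost in 8 of 18 alternatives, including each library left out other than SSC PDGF- replicate 1 (adjusted p from 0.0739 to 0.136). BAG3, a stress-induced member that steers clients to autophagy, measured 86.4, 112 and 102 CPM against 90.1, 87.7 and 99.9 CPM, and the overlapping groups passed in neither fit (edgeR adjusted p = 0.63, and 0.195 with the block).

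Among the heat shock factors, HSF1 and HSF2 had opposite signs. HSF1, the master regulator of the stress response, measured 42.9, 77.8 and 79.0 CPM in SSC PDGF+ and 35.3, 56.7 and 57.0 CPM in SSC PDGF-. Batch 1 was the lower batch in both groups, and the log2 fold change of 0.42 ± 0.28 gave an edgeR adjusted p of 0.332 without the block and 7.41e-05 with it. HSF2, which acts in development and in the testis and can pair with HSF1, measured 21.1, 12.4 and 15.1 CPM with PDGF and 30.1, 22.6 and 25.3 CPM without. These groups did not overlap, and the change of -0.68 ± 0.23 gave an edgeR adjusted p of 0.077, 3.69e-05 with the block, and 0.0219 when SSC PDGF+ replicate 1 was left out. HSF4 was low, at 1.23 and 1.19 CPM, and passed in neither fit.

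The small heat shock proteins hold unfolded proteins without ATP. HSPB6, known from smooth muscle, averaged 47.0 CPM with PDGF and 35.1 CPM without and was higher only with the block (edgeR adjusted p = 0.475, and 5.09e-04). HSPB3 and HSPB7, known from muscle, averaged under 4 CPM and passed in neither fit; HSPB7 differed in sign between batch 1 (0.55) and batch 2 (-0.90).

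Members known for expression in the testis were a list of 8 genes analysed, comprising HSPA1L, HSPA4L, HSPB9, DNAJB13, DNAJC5B, DNAJC5G, HSF5 and HSF2BP. Of the 6 tested, 5 (83.3%) were lower with PDGF in both fits, against 10.7% of all genes without the block and 29% with it. HSPA4L, which many tissues also express, was higher. The median log2 fold change of these 6 was -2.48, against 0.02 over all genes. All 8 genes together summed to 66.8 ± 10.6 CPM with PDGF (SD, n = 3) and 72.0 ± 1.19 CPM without it, a sum in which HSPA4L is by far the largest term. Without HSPA4L the list summed to 6.37 ± 0.278 CPM with PDGF (SD, n = 3) against 33.3 ± 7.63 CPM without it, which is 5.24-fold lower.

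DNAJC5B (chr8:66667232-66748251), a testis form of the cysteine string protein, showed the largest change of any member tested. It measured 0.540, 0.547 and 1.35 CPM with PDGF and 5.42, 8.91 and 8.62 CPM without, and the log2 change was -3.22 ± 0.42 (edgeR adjusted p = 0.00194). HSPB9 (chr16:53244762-53245292), the testis small heat shock protein, measured 0.675, 1.02 and 1.50 CPM against 4.11, 11.5 and 11.7 CPM. Within SSC PDGF- its replicate 1 was well below the other two, yet still above every library with PDGF, and the log2 fold change was -3.08 ± 0.49 (edgeR adjusted p = 0.00448). DNAJB13 (chr14:67003840-67024904), a J protein of the radial spokes in the sperm tail, was scarce in all libraries, at 0.270, 0.235 and 0.376 CPM against 2.22, 1.63 and 1.76 CPM (-2.64 ± 0.43, edgeR adjusted p = 0.00509). The calls of these 3 genes held in every alternative in which the gene was tested.

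HSPA1L, the HSP70 of spermatids, measured 2.43, 1.02 and 0.751 CPM in SSC PDGF+ and 5.67, 7.47 and 8.33 CPM in SSC PDGF-. The groups did not overlap (log2 fold change -2.33 ± 0.43, edgeR adjusted p = 0.00841), but batch 1 gave a log2 difference of -1.21 and batch 2 one of -3.12. Its sequence is closely related to that of HSPA1A and HSPA1B, and its symbol was not found in the Mmul_10 annotation, so its counts are uncertain. HSF2BP, which brings BRCA2 to meiotic breaks, measured 2.77, 3.44 and 2.18 CPM against 6.82, 6.23 and 8.92 CPM (-1.39 ± 0.28, edgeR adjusted p = 0.0115), and leaving out SSC PDGF+ replicate 3 brought the adjusted p to 0.0516. HSF5, a heat shock factor of spermatocytes, had 0 counts in SSC PDGF+ and 5, 0 and 0 counts in SSC PDGF-, so its difference rests on a single library. DNAJC5G, the other testis cysteine string protein, had 0 counts against 2, 0 and 2 counts. Both had too few counts for a test or a fold.

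The spermatid markers differed in the same direction as the 5 lower genes. Their summed level was 98.4 ± 19.9 CPM with PDGF and 781 ± 186 CPM without, 7.93-fold lower, beside the 5.24-fold of the testis list without HSPA4L and the ratio of 1.08 for the whole list. The part of spermatids in the lower level of the testis members was not tested.

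**Figure D3:**
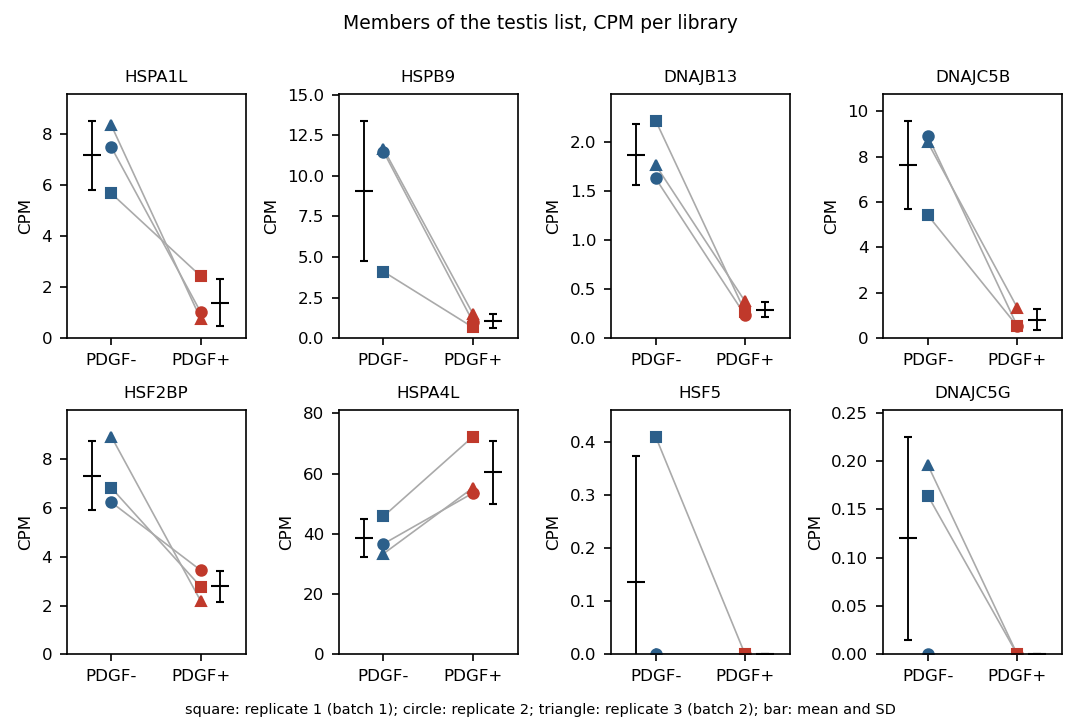
Level in each library (CPM, linear axes from 0) of the 8 members known for testis expression, with grey lines joining libraries of the same replicate number and bars of mean ± SD (n = 3). For HSPA1L, HSPB9, DNAJB13, DNAJC5B and HSF2BP every SSC PDGF- library lies above every SSC PDGF+ library, HSPA4L runs the other way, and HSF5 and DNAJC5G rest on 5 and 4 counts.

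Without the testis list, 55 members remained, all tested. Of these, 2 were called higher (3.64%, background 7.61%) and 3 lower (5.45%, background 10.7%) without the block. With it 25 were higher (45.5%, background 31.1%) and 8 lower (14.5%, background 29%). Leaving out the testis list took away 5 of the 8 members called lower without the block. The median log2 fold change of the 55 was 0.21, against 0.17 for all members. It was 0.24 in batch 1 and 0.21 in batch 2, where all genes tested had medians of -0.00 and 0.03. The small positive shift of these 55 members was thus similar in size in both batches. Counts by compartment take all members, the testis list included. With the block 4 of 9 mitochondrial members were higher and 1 lower. Of 5 members of the endoplasmic reticulum 3 were higher and 0 lower. Of the 25 cytosolic members 12 were higher, with HSPA4L of the testis list among them. The 6 lower cytosolic members included HSPA1L, HSPB9 and DNAJB13 of that list. These counts stand beside 31.1% of all genes higher and 29% lower in that fit and were not tested between compartments.

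Co-chaperones and other chaperones outside the members, among them HSPBP1 and HSPBAP1 that the rule left out, were described from a list of 42 genes analysed. All 42 were tested. Without the block 1 was called higher and 6 lower, or 2.38% and 14.3% against the background of 7.61% and 10.7%, and with it 19 were higher (45.2%, background 31.1%) and 14 lower (33.3%, background 29%). Among the 15 co-chaperones of HSP90, 1 was called higher and 1 lower without the block, and 11 higher (73.3%, background 31.1%) and 2 lower (13.3%, background 29%) with it. STIP1, the adaptor that hands clients from HSP70 to HSP90, was the only one called higher without it, and measured 327, 354 and 326 CPM with PDGF and 262, 258 and 245.5 CPM without. It rose by 0.39 ± 0.12 log2 units (edgeR adjusted p = 0.0497), although 12 of 18 alternatives lost the call and so did leaving out any library (adjusted p from 0.0545 to 0.172). With the block the HSP90 ATPase activator AHSA1 (0.30), p23 (PTGES3, 0.50), the immunophilins FKBP4 (0.35) and PPID (0.66), and CHORDC1 (0.74) were also higher. UNC45B, a myosin chaperone of muscle that binds HSP90, went the other way, at 0, 0.313 and 0 CPM with PDGF and 1.48, 1.44 and 2.35 CPM without. It was called lower (log2 fold change -4.02 ± 0.87, edgeR adjusted p = 0.0155) on 4 counts in SSC PDGF+, and the adjusted p was 0.056 without SSC PDGF+ replicate 3 and 0.0589 without SSC PDGF- replicate 3.

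The cytosolic chaperonin TRiC folds actin and tubulin in a ring of 8 different subunits. Of the 14 TRiC and prefoldin genes listed, 7 were higher with the block (50%, background 31.1%) and 3 lower (21.4%, background 29%). The 7 higher were the subunit genes TCP1, CCT2, CCT4, CCT5, CCT6A, CCT7 and CCT8, with log2 fold changes from 0.33 to 0.47. Without the block their edgeR adjusted p ranged from 0.0522 to 0.11. CCT3, the remaining subunit, measured 381 ± 11.2 CPM (SD, n = 3) and 377.5 ± 17.1 CPM and passed in neither fit. CCT6B, the testis form of CCT6A, fell by 0.78 log2 units (6.01 against 10.3 CPM, edgeR adjusted p = 0.0323). Of the 6 co-chaperones of HSP70 itself none was called without the block in edgeR or DESeq2, 1 had an unadjusted p under 0.05, and with the block 1 was higher and 3 lower (background 31.1% and 29%), among the latter the ubiquitin ligase STUB1 (-0.33).

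The alpha-crystallins, small heat shock proteins under other names, fell with PDGF. CRYAA measured 4.19, 5.08 and 4.81 CPM in SSC PDGF+ and 15.8, 21.3 and 20.9 CPM in SSC PDGF-, and its log2 change was -2.04 ± 0.21 (edgeR adjusted p = 6.27e-04). CRYAB measured 13.5, 17.2 and 15.3 CPM against 30.1, 36.6 and 40.0 CPM, a change of -1.21 ± 0.18 (edgeR adjusted p = 0.00343). Neither gene had overlapping groups. HSPBAP1, which binds the small heat shock protein HSPB1, fell from 12.98, 9.20 and 10.2 CPM to 5.13, 4.30 and 3.46 CPM (-1.33 ± 0.25, edgeR adjusted p = 0.00841). With replicates 2 and 3 summed, the adjusted p was 0.0633 for CRYAB and 0.0745 for HSPBAP1. HSCB, a mitochondrial J protein for iron-sulphur clusters, fell by 0.90. HSBP1, which binds the trimer domain of HSF1, measured 142, 125 and 118 CPM against 182, 155 and 169 CPM, a change of -0.39 ± 0.14 (edgeR adjusted p = 0.0863, and 3.42e-06 with the block).

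**Figure D4:**
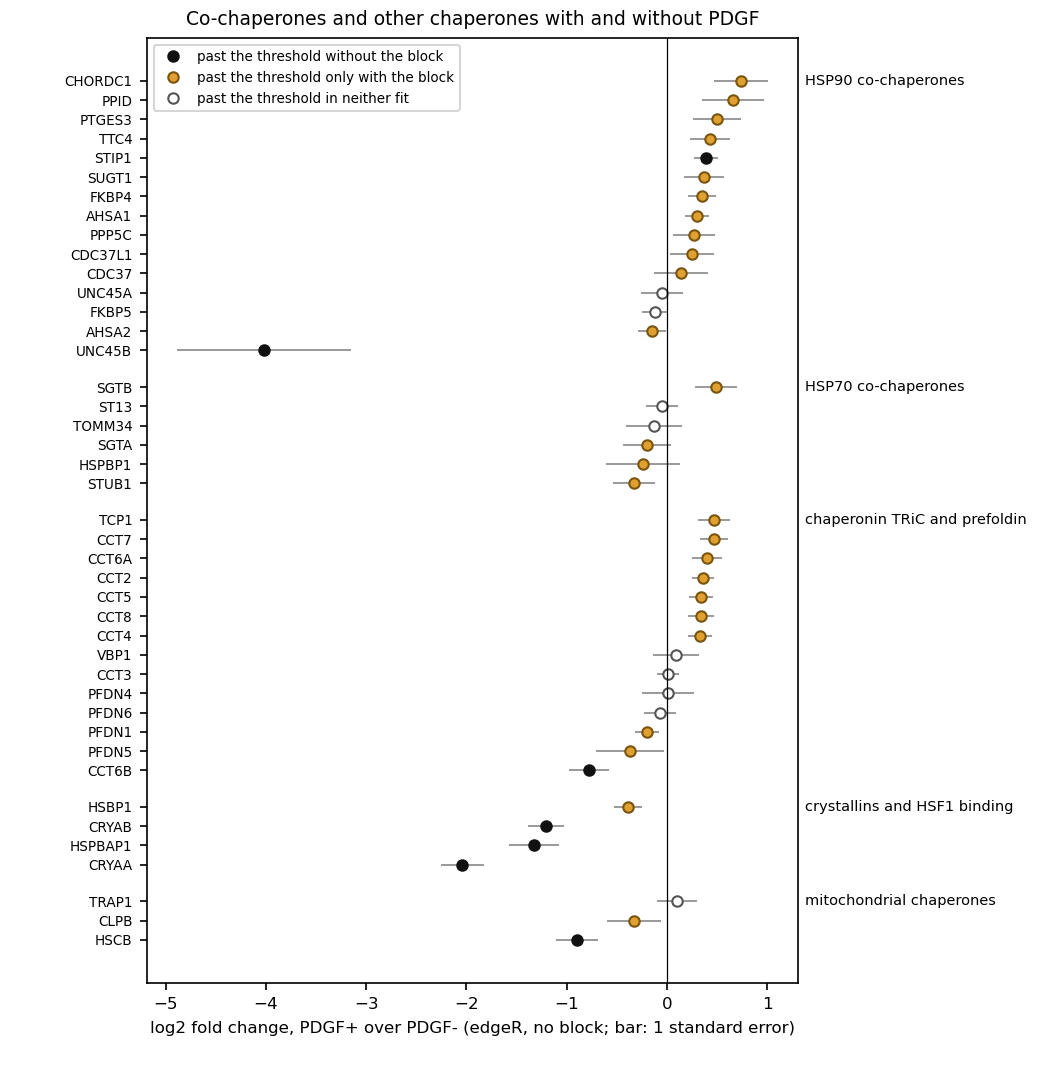
Log2 fold change of SSC PDGF+ over SSC PDGF- for 42 co-chaperones and other chaperones outside the members, with bars of 1 standard error from the edgeR fit without a block (3 libraries per group) and colours as for the members. Among HSP90 co-chaperones and TRiC subunits most points sit between 0.14 and 0.74 and passed only with the block, while UNC45B (-4.02), CRYAA (-2.04), HSPBAP1 (-1.33) and CRYAB (-1.21) lie furthest below 0.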

How the data were processed

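Bulk RNA sequencing of 6 libraries of cultured rhesus monkey SSCs, 3 with and 3 without PDGF, was analysed from the deposited table. The deposited values were read as counts not normalized by the authors, and were handled like expected counts and rounded, since 34 values, in 13 genes that are no members, were not whole; why is not given in the sources used here. The submitters' processing notes name fastp, HISAT2 2.1.0, SAMtools, featureCounts 2.0.1 and the builds Mmul_10 and Mmul_8.0.1, without their roles. The strand setting and the handling of reads that map to several genes are not given in the sources used here, so overlapping genes and near-identical copies can share reads. Among genes with at least 20 counts 405 sets had identical counts. By symbol 17389 of 17795 genes matched NCBI RefSeq annotation release 103 of Mmul_10, as did 1990 of 1991 identifiers starting with LOC114, so Mmul_10 gave positions, exon lengths and upstream sequence.

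The fit used TMM factors, filterByExpr and the quasi-likelihood test of edgeR 4.0.16 in R 4.3.3 on all genes, without a block, with Benjamini-Hochberg adjusted p-values over 11539 genes and a threshold of 0.05. Log2 differences within a batch had 0.5 counts added. By the labels, libraries of the same number come from 1 batch. How far they lay from their group means correlated with r = 0.812, 0.475 and 0.503 across genes. Replicates 2 and 3 correlated crosswise just as closely (0.47 and 0.526). These values follow the batch and do not show that replicate 2 pairs with 2 rather than 3. The replicate block was the alternative, besides other factors, filters and thresholds, DESeq2 1.42.0, limma-voom 3.58.1, batch terms, summed replicates and each library left out. The fit without a block was also run on simulated counts that held no batch effect. The fit with the block was not run on them. Figures were drawn with matplotlib 3.10.9.

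The members and lists were chosen with earlier results of these data known. Genes named with full values are members past the threshold, the testis list, HSF1, HSF2, HSPA8, HSPD1, HSPE1, HSPH1, DNAJA1, DNAJB1 and BAG3, and of the co-chaperones up to 3 per direction with the largest change, CRYAB and HSBP1; others are named by role or for their upstream match, after their values were seen. Protein sequences were not used here, and 1 upstream match is not reported here.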

Additional observations from a re-analysis of the deposited data

How the results depend on the processing

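Of the 26 genes named by rule none changed direction in any of 18 alternative fits, and 6 stayed on the same side of the threshold in all of those in which they were tested. With the replicate block, 26 members were higher and 13 lower, and 19 co-chaperones higher and 14 lower; batch as a term gave 26, 13, 19 and 14, batch 2 alone 20, 14, 18 and 14, and replicates 2 and 3 summed with batch as a term 27, 13, 19 and 13. The block removed no call of a named gene. Summing replicates 2 and 3 without a batch term left 0 members higher and 4 lower, and 0 co-chaperones higher and 2 lower; HSP90AB1 (adjusted p = 0.109), HSPA1L (0.0742), HSPBAP1 (0.0745) and CRYAB (0.0633) lost their calls in that fit only. Members higher numbered 3 in the fit reported, 1 with upper quartile factors, 1 with at least 10 counts in every library, 5 with DESeq2, 0 at an adjusted p under 0.01, 7 under 0.1 and 1 with an absolute log2 fold change of at least 1; at an adjusted p under 0.01 members lower numbered 5. Co-chaperones higher numbered 0 with upper quartile factors, with at least 10 counts, with limma-voom, at an adjusted p under 0.01 and with an absolute log2 fold change of at least 1, 3 with DESeq2 and 7 under 0.1, and co-chaperones lower numbered 3 under 0.01. Leaving out 1 library gave 1 to 7 members higher and 5 to 10 lower, and 0 to 5 co-chaperones higher and 3 to 5 lower; the 7 members higher and 5 co-chaperones higher came without SSC PDGF- replicate 1, the 5 members lower without SSC PDGF+ replicate 3 and the 3 co-chaperones lower without SSC PDGF- replicate 3. The cause of these shifts was not tested. In the fit reported 19 members had an unadjusted p under 0.05.

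Because separate cultures are not stated, p-values measure only the spread between these libraries, and whether replicates 2 and 3 are independent is not known. Genes under about 1 CPM rest on few counts, and PCR duplicates cannot be told apart.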
